A study of Homo sapiens with 12 samples.

Results

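The HOX genes of human cells lie in 4 clusters, HOXA, HOXB, HOXC and HOXD. All genes whose symbol is HOX, a cluster letter and a number were taken from a count table of HEL cells, which gave 39 of 26481 genes: 11 in HOXA, 10 in HOXB and 9 each in HOXC and HOXD. A gene was called detected when at least 2 of the 12 samples held 10 or more counts, and 24 of the 39 were detected. HEL is an established human erythroleukemia line, used here as a model of acute myeloid leukemia (AML), and the cells carried DNA barcodes that mark the descendants of single cells. RNA was sequenced from 2 untreated cultures (NT, kept with 0.1 µM DMSO) and from cultures that regrew after a drug exposure of 72 h. The exposures were to 1.8 µM doxorubicin (Doxo, n = 3), to 1.8 µM doxorubicin with 6 µM cytarabine (Doxo+Cyta, n = 3), or to both at these doses with 0.1 µM decitabine (Doxo+Cyta+DAC, n = 4). Treated cultures were sampled about 30 days later, when the starting number of cells had been reached again. Doxorubicin is an anthracycline, cytarabine a cytidine analog that blocks DNA synthesis, and decitabine (DAC) a cytidine analog that lowers DNA methylation.

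HOX proteins are homeodomain transcription factors that set position along the body axis of the embryo. The number in a gene name is its paralog group, and genes with low numbers lie at one end of a cluster and are used further forward in the embryo than genes with high numbers. In blood, stem and progenitor cells express mainly genes of HOXA and HOXB and lose them as they mature, and HOXA9 with its cofactor MEIS1 is a known driver of AML. HOX proteins bind DNA together with PBX and MEIS family proteins, and their genes are held on or off by Trithorax group proteins such as KMT2A and by Polycomb proteins such as EZH2 and CBX7.

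Total counts per sample lay between 12763582 and 19106235, so that 3 counts, taken as the lowest level a sample could show, corresponded to 0.157 to 0.235 on the counts-per-million (CPM) scale. Levels below are CPM scaled by TMM factors unless another scale is named. All 9 erythroid markers examined, among them GATA1 and the fetal globin genes HBG1 and HBG2, held at least 515 counts in every sample. The megakaryocyte genes PF4 and GP1BB held 0 to 2 counts, although the megakaryocyte gene ITGA2B was abundant. Of the monocyte and granulocyte genes, MPO and ELANE held 0 to 2 counts and CD14 0 to 8, while CSF1R held 5 to 93 and LYZ 344 to 772. The T cell genes CD3D, CD3E and CD3G held at most 2 counts, but CD2 held 290 to 883. Of the B cell genes, MS4A1 held 0 counts, CD79A 13 to 103 and CD79B 220 to 540. All 5 epithelial markers held at most 2 counts, and the 5 stromal markers at most 19. Libraries lay at a root-mean-square log2 distance of 0.294 to 0.544 from the others of their group, farthest for Doxo+Cyta sample 20.

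The 4 clusters differed in which members were used. HOXA (chromosome 7) had 7 detected members, among them HOXA3, HOXA4, HOXA5, HOXA10, HOXA11 and HOXA13. HOXB (chr17:48529445-48728749, GRCh38) had 9, which were all of its members except HOXB1, and HOXB1 held 0 counts in all 12 samples. HOXC (chr12:53938792-54056030) had HOXC6, HOXC8, HOXC9 and HOXC10. HOXD (chr2:176092804-176190907) had HOXD1, HOXD4, HOXD8 and HOXD13, so that the genes at both ends of that cluster were detected while HOXD9, HOXD10, HOXD11 and HOXD12 between them held at most 5 counts. The 24 detected genes were also the 24 that entered the tests.

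The other 15 members were undetected. Next to HOXB1, HOXC11 also held 0 counts throughout. HOXC12, HOXD10 and HOXD11 held 0 or 1 count in each sample, and HOXA7, HOXC5 and HOXC13 held 0 to 2. HOXD9 held 0 to 3 counts, HOXD12 0 to 5, HOXA9 0 to 6, HOXA2 0 to 7, HOXA6 3 to 6, HOXD3 1 to 9 and HOXC4 0 to 15. Just inside the limit lay HOXD4, with 10 or more counts in 3 samples, and HOXA4 and HOXA13, each with 5. Just outside lay HOXC4, with 10 or more counts in 1 sample. The counting bears on the low value of HOXA9, the member best known from AML. Fragments that overlap more than 1 gene were left out, and 27.4% of the exon bases of HOXA9 are free of other genes, the rest being shared with the readthrough gene HOXA10-HOXA9. For the same reason HOXA7, with 25.4% of its exon bases unshared, and HOXA10, with 61.6%, could be undercounted, as could HOXC4, HOXC5 and HOXC6, which share an exon and have 74.1% to 76.0% unshared.

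Of 69636 counts summed over the 39 genes and 12 samples, 56008 came from HOXB. HOXB9 alone gave 32.4% and HOXB2 25.0%, and together they made up 66.5% to 76.5% of the HOXB level in each sample. Levels of different genes were compared only as CPM per kilobase of the deposited gene length. On that scale HOXB2 stood at 50.3 CPM per kilobase in NT (47.0 and 53.7 in the 2 samples) and HOXB9 at 47.9 (46.7 and 49.2), and the ranges of these 2 genes overlapped. HOXB4 at 14.4, HOXB3 at 11 and HOXB7 at 8.43 followed, each apart from its neighbour in both samples. Lower in the order stood HOXB6 at 4.92, HOXA10 at 4.43 and HOXA11 at 4.29. HOXD1 at 4.12 and HOXD13 at 3.37 came next. HOXC6 at 2.16, HOXC9 at 1.69 and HOXC10 at 1.36 were the highest of HOXC. Neighbours in the order then overlapped from HOXB5 at 1.14 through HOXB8 at 1.05 and HOXA5 at 0.921 to HOXB13 at 0.826. They overlapped again from HOXC8 at 0.511 through HOXD4, HOXA13 and HOXA4 to HOXA3 at 0.439, and cannot be ranked within these runs. HOXD8 was last at 0.292, so the detected genes spanned a 172-fold range. Per kilobase of exon that no other gene shares, a scale added after the values were seen, HOXA10 stood at 7.20 and HOXC6 at 2.88.

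**Figure D1:**
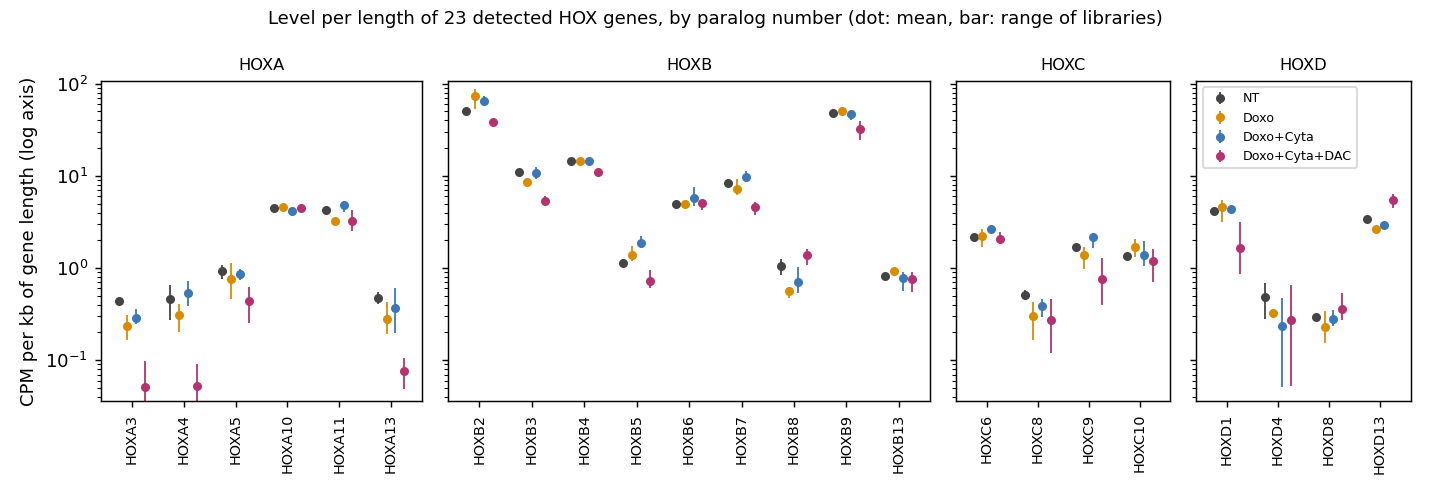
CPM per kilobase of gene length (vertical log axis) of 23 of the 24 detected HOX genes, by cluster and in order of paralog number, for the 4 groups; dots are means, bars run from the lowest to the highest library, and bars that reach the floor of the axis go on below it. HOXB2 and HOXB9 stand highest in every group, and HOXA3, HOXA4 and HOXA13 are lowest in Doxo+Cyta+DAC.

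The first question was whether chemotherapy without decitabine left a change in HOX expression. In Doxo against NT, edgeR's quasi-likelihood test called 0 of the 24 genes at an adjusted p under 0.05, where 10.7% of all 14164 tested genes were called. In Doxo+Cyta against NT it called 0 of 24, against 1.46% of all genes, and in Doxo+Cyta against Doxo 0 of 24, against 3.4%. At an unadjusted p under 0.05 the counts were 4, 1 and 3. DESeq2 called 1, 0 and 0. Without Doxo+Cyta sample 20, Doxo against NT gave 3 calls, 1 higher and 2 lower, and without Doxo sample 4 it gave 1.

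The smallest adjusted p in these 3 comparisons was 0.064, for HOXB2, a hindbrain gene of the anterior end of HOXB. Its level was 86.0 and 75.3 CPM in the 2 NT samples, and 85.2, 133 and 139 in the 3 Doxo samples. The Doxo samples thus overlapped NT through sample 4, and the log2 difference was 0.56 (SE 0.18). HOXA3, needed for the thymus and parathyroid, went from 1.44 and 1.61 CPM in NT to 0.768, 0.582 and 1.07 in Doxo, with no overlap, a log2 difference of -0.91 (SE 0.42) and an adjusted p of 0.17. The HOX genes of Doxo and NT did not overlap for 1 gene on the higher and 6 on the lower side, where 24.6% and 24.5% of all genes did the same.

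These tests do not show that the groups were alike. The 95% interval of the difference stayed within 2-fold in either direction for 14 of 24 genes in Doxo against NT, for 16 in Doxo+Cyta against NT and for 15 in Doxo+Cyta against Doxo. HOXB4, which expands blood stem cells when it is raised, had the narrowest interval. Its level was 28.2 and 30.3 CPM in NT, 28.2, 29.0 and 31.1 in Doxo, and 30.5, 29.9 and 27.2 in Doxo+Cyta, and the interval of the log2 difference between Doxo+Cyta and Doxo ran from -0.24 to 0.22. The widest interval was that of HOXD4, from -2.07 to 1.23 in the same comparison.

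The second question was what differed in the relapses that had received decitabine. The summed level of HOXB was 315 and 296 CPM in NT, between 314 and 361 in Doxo and between 294 and 359 in Doxo+Cyta, but 197 to 222 in Doxo+Cyta+DAC. All 4 decitabine samples thus lay below the other 8. HOXA showed the same order, with 31.8 to 38.3 CPM in Doxo+Cyta+DAC and 40.4 to 50.2 in the other 8 samples. HOXC at 6.95 to 11.8 CPM and HOXD at 13 to 20.7 overlapped the other groups. As a share of all HOX CPM, HOXB was 77.5% ± 1.38 (SD, n = 4) in Doxo+Cyta+DAC and 80.0% ± 0.352 (n = 2) in NT, and HOXD was 6.45% ± 0.930 against 4.63% ± 0.123. In bulk RNA a smaller number of expressing cells and less RNA per cell cannot be told apart.

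**Figure D2:**
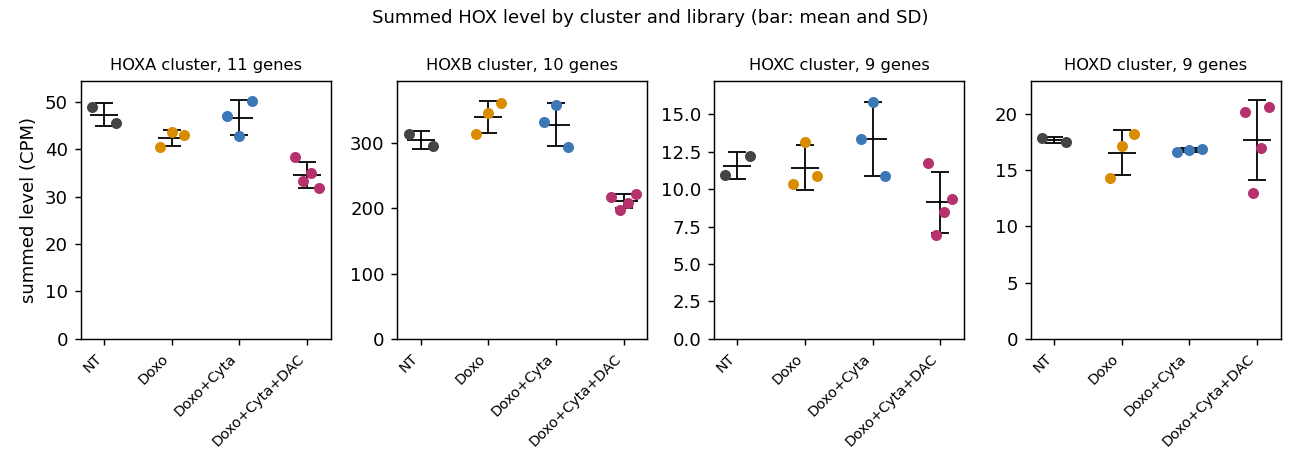
Summed level in CPM (vertical axis) of the members of each HOX cluster in every library, by treatment group; dots are libraries, and bars give the mean and SD. In HOXA and HOXB all 4 Doxo+Cyta+DAC libraries lie below the other 8, with HOXB at 197 to 222 CPM, while HOXC and HOXD overlap.

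By gene, edgeR called 11 of 24 lower and 1 higher in Doxo+Cyta+DAC against NT, where 48.7% of all tested genes were called, 23.7% lower and 24.9% higher. Against Doxo it called 12 lower and 2 higher, where the shares of all genes were 59.5%, 30.4% and 29.1%, and against Doxo+Cyta 14 lower and 2 higher, where they were 60.3%, 30.5% and 29.8%. The total share of members called, 50%, 58.3% and 66.7%, was thus close to that of all genes, and only the division by direction was uneven. No test of that division was made. HOXA3, HOXA4 and HOXA13 held 0 to 5 counts in the decitabine samples, so they passed the detection rule only through the other groups. That selection favours lower calls, and these genes could hardly have been called higher. The median log2 difference over the 24 genes was -0.61 against NT, -0.58 against Doxo and -0.55 against Doxo+Cyta, while the median over all tested genes was 0.02, -0.01 and 0.00. The 3 comparisons share the 4 decitabine samples, so their counts are not independent. In Doxo+Cyta+DAC, 14 of the 24 genes lay below all NT samples and 1 above them, where 32.9% and 34.2% of all genes did so. Against Doxo, 11 lay below and 2 above (30.2% and 29.7% of all genes), and against Doxo+Cyta 13 lay below and 2 above (28.2% and 29% of all genes). Without NT sample 1, which leaves a single untreated sample that is taken to vary like the others, 4 genes were called lower and 1 higher against NT.

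At an adjusted p under 0.01 with a fold over 2, the genes lower against NT were HOXA3, HOXA4, HOXA13, HOXB3 and HOXD1, which is 5 of 24, where 9.28% of all genes passed. None was higher by that rule, where 6.9% of all genes were. Here too HOXA3, HOXA4 and HOXA13 had been detected only through the other groups. Against Doxo, 4 were lower (HOXA3, HOXA4, HOXA13 and HOXD1; 11.9% of all genes) and HOXB8 and HOXD13 were higher (9.71%). Against Doxo+Cyta, 8 were lower, namely HOXA3, HOXA4, HOXA13, HOXB3, HOXB5, HOXB7, HOXC9 and HOXD1, where 13.1% of all genes passed, and 0 were higher, where 10.2% of all genes were.

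**Figure D3:**
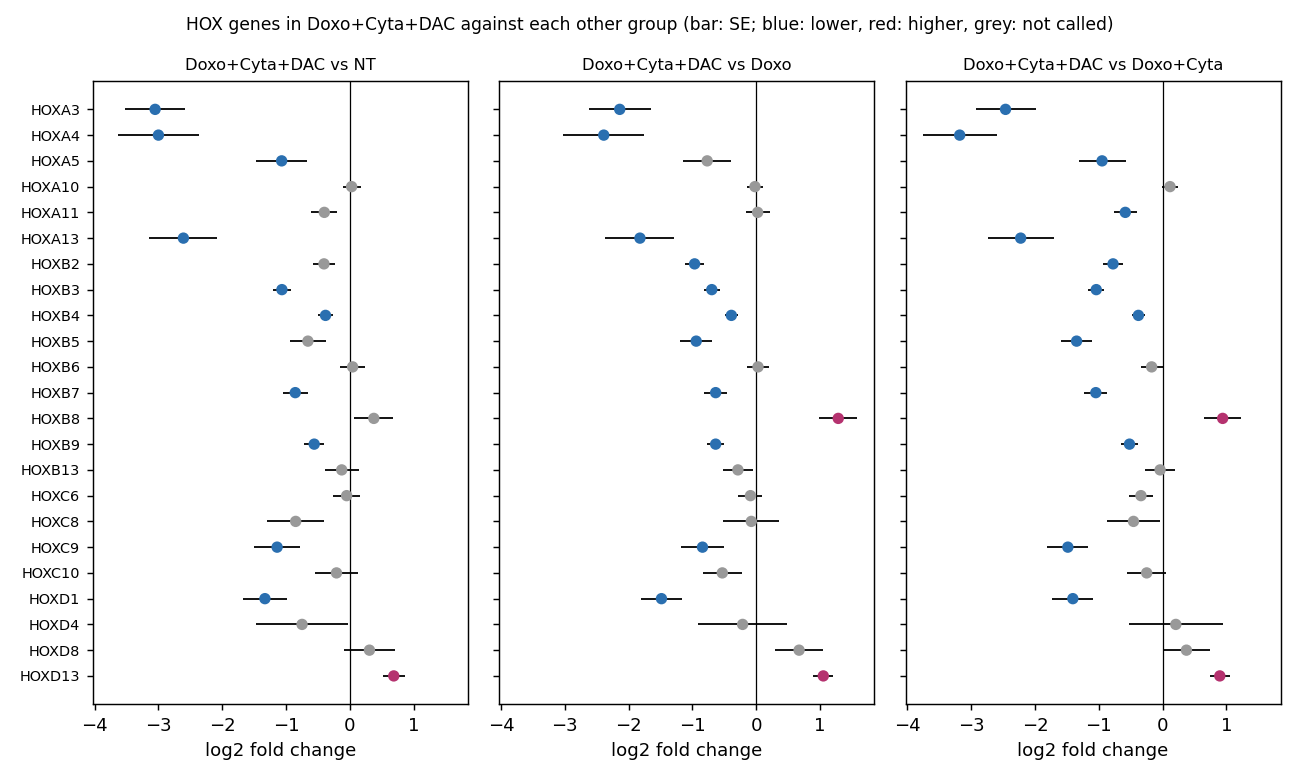
Log2 fold change (horizontal axis) of 23 of the 24 detected HOX genes in Doxo+Cyta+DAC against NT, Doxo and Doxo+Cyta; bars are SE, blue marks genes called lower and red genes called higher at an adjusted p under 0.05, and grey marks genes not called. HOXA3, HOXA4 and HOXA13 lie farthest to the left, and HOXD13 is red in all 3 panels.

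Across the 3 comparisons, 10 genes were lower in each, among them HOXA3, HOXA4, HOXA13, HOXB3, HOXB4, HOXB7, HOXB9, HOXC9 and HOXD1. Of all 14164 tested genes, 18.7% were lower in all 3 comparisons and 18.7% higher. HOXD13 was higher in each, 5 genes were called in 1 or 2 comparisons and 8 in none. Grouped by position along a cluster, a grouping made after the values were seen, 6 of the 8 detected anterior genes (paralog groups 1 to 4) were lower in all 3, as were 1 of the 8 central genes (groups 5 to 8) and 3 of the 8 posterior genes (groups 9 to 13). These counts include HOXA3 and HOXA4 (anterior) and HOXA13 (posterior), which were detected only through the other groups and could hardly have been called higher. HOXA4, HOXB4 and HOXB5 are among the genes that the study itself singled out on these samples, so their direction is not independent evidence.

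Of the detected genes, 6 had a RefSeq promoter entry (GRCh38.p14) within 100 bases of their annotated start. For 4 of them, HOXA4, HOXA13, HOXD1 and HOXD13, the upstream bases are printed here, because these 4 were called in all 3 comparisons, in both directions. CG dinucleotides are marked as the sites of DNA methylation, which decitabine lowers. The other 2 were HOXA11, called against Doxo+Cyta only, and HOXD8, not called. Each stretch is read 5′ to 3′ on the strand of the gene and has every CG in capitals. It ends just before the annotated start or the RefSeq start, whichever lies further upstream. For HOXD13 that is the RefSeq start, 83 bases upstream of the annotated start.
HOXA4 (chr7:27130781-27131007, minus strand): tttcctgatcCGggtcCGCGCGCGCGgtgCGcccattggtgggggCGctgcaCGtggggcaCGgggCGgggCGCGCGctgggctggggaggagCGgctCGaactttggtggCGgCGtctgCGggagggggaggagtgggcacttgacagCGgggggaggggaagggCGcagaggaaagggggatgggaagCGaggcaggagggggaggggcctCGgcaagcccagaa
HOXA13 (chr7:27200107-27200341, minus strand): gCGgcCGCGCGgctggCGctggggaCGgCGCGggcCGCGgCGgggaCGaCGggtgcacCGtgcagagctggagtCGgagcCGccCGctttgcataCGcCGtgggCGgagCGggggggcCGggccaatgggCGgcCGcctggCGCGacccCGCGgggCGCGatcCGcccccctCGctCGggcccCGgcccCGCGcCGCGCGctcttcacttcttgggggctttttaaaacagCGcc
HOXD1 (chr2:176188418-176188578, plus strand): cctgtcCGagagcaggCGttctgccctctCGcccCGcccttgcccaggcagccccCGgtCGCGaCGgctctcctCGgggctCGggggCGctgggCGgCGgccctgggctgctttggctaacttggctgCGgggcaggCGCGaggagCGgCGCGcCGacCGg
HOXD13 (chr2:176092471-176092720, plus strand): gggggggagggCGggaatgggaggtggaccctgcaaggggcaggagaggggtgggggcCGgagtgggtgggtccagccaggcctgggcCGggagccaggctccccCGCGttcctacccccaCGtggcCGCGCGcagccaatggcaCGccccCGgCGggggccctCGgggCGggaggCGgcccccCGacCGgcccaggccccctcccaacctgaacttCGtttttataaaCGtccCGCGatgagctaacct
They hold 23 CG in 227 bases, 40 in 235, 21 in 161 and 21 in 250, in that order. Counted over the whole window of 300 bases, HOXA13 held 44 CG, more than 95.8% of the 35116 RefSeq promoters, HOXD1 36 (87.3%), HOXD8 34 (84.4%), HOXA4 27 (71.8%), HOXD13 24 (66.1%) and HOXA11 13 (48.3%). In that window the gene that was higher, HOXD13, held the fewest of the 4 printed, but HOXA11, called lower against Doxo+Cyta, held fewer still. The printed stretches of HOXD1, which was lower, and of HOXD13 both held 21. A link between CG count and direction was not tested. Of the 15 HOX genes with such an entry, detected or not, 13 were above the median of all promoters, which was 14 CG, and their own median was 24. HOXC4 and HOXC5 have the same entry, with 15 CG, which is counted for both genes. DNA methylation was not measured in these samples.

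HOXA4, an anterior gene (chr7:27128507-27130780), had few counts. Its counts were 22 and 8 in NT, 10, 6 and 9 in Doxo, 20, 13 and 11 in Doxo+Cyta, and 2, 0, 3 and 1 in Doxo+Cyta+DAC. No decitabine sample overlapped another group, but all 4 were at or under the 3-count limit. The summed level of HOXA4 was therefore compared as a ratio of counts, with an exact 95% interval that covers counting error only. It was 8.63 (3.54 to 25.4) times higher in NT, 5.50 (2.2 to 16.4) times in Doxo and 9.65 (4.10 to 27.7) times in Doxo+Cyta. The adjusted p values of edgeR were 0.00149, 0.00515 and 0.000317, and the first became 0.056 without NT sample 1.

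HOXA3, the neighbour of HOXA4 (chr7:27106190-27127020), stood at 1.44 and 1.61 CPM in NT, at 0.768, 0.582 and 1.07 in Doxo and at 1.24, 0.867 and 0.917 in Doxo+Cyta. In Doxo+Cyta+DAC it stood at 0.245, 0.344, 0.0525 and 0.0792, from 4, 5, 1 and 1 counts. The samples with 1 count lay under the 3-count limit. HOXA3 had been detected only through the other groups, so it could hardly have been called higher. Every decitabine sample was below every other sample. The log2 fold changes were -3.05 (SE 0.48), -2.14 (SE 0.49) and -2.46 (SE 0.47) against NT, Doxo and Doxo+Cyta, with adjusted p values of edgeR of 0.000176, 0.00182 and 0.000462. In the paragraphs that follow, fold changes and adjusted p values are given in this order of comparisons. The antisense gene HOXA-AS2 overlaps both genes and the counting ignored strand, but 97.6% of the exon bases of HOXA3 and 85.3% of those of HOXA4 are free of other genes.

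HOXA13, a posterior gene of the limb and genital tract at the far end of the cluster (chr7:27196880-27200106), moved in the same direction. It stood at 1.39 and 1.01 CPM in NT, 0.489, 0.524 and 1.07 in Doxo and 0.495, 0.734 and 1.53 in Doxo+Cyta. In Doxo+Cyta+DAC it stood at 0.123, 0.138, 0.262 and 0.238, from 2, 2, 5 and 3 counts, near the 3-count limit. HOXA13 too had been detected only through the other groups. The decitabine samples lay below all others, while NT, Doxo and Doxo+Cyta overlapped each other. Log2 fold changes were -2.61 (SE 0.53), -1.82 (SE 0.54) and -2.22 (SE 0.52), with adjusted p values of 0.00127, 0.00999 and 0.00205. The call against Doxo was lost without Doxo sample 6 (adjusted p = 0.072).

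Between these genes lies HOXA10, which was not called in any comparison. This gene, a regulator of myeloid and lymphoid progenitors, had 14.2 and 14.1 CPM in NT, 15.2, 15.0 and 13.6 in Doxo, 13, 12.1 and 14.8 in Doxo+Cyta and 15.9, 14.3, 14.6 and 12.8 in Doxo+Cyta+DAC. All groups overlapped, and the 95% interval of the log2 difference from NT ran from -0.28 to 0.33, within 2-fold in either direction.

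HOXA5, a gene of the lung and thorax, had 1.80 and 1.25 CPM in NT, 1.89, 0.757 and 1.14 in Doxo, 1.61, 1.40 and 1.22 in Doxo+Cyta and 1.04, 0.688, 0.420 and 0.792 in Doxo+Cyta+DAC. The decitabine samples lay below NT and Doxo+Cyta but overlapped Doxo. HOXA5 was called lower against NT (-1.07, SE 0.40, adjusted p = 0.039) and also against Doxo+Cyta (-0.95, SE 0.37, adjusted p = 0.038), and its value against Doxo was -0.77 (SE 0.38, adjusted p = 0.092). Of 18 alternatives of the processing, 6 ended each call, DESeq2 among them with adjusted p values of 0.051 in both. HOXA11, a posterior gene of the limb and uterus, had 11.4 CPM in both NT samples, 9.07, 8.38 and 8.02 in Doxo, 10.6, 14.3 and 13.9 in Doxo+Cyta and 11.3, 6.67, 9.18 and 7.13 in Doxo+Cyta+DAC. It was called lower against Doxo+Cyta only (-0.59, SE 0.18, adjusted p = 0.013), where decitabine sample 30 overlapped Doxo+Cyta sample 19.

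In HOXB, the most abundant genes, HOXB9 and HOXB2, were lower in Doxo+Cyta+DAC by at most 1.95-fold, for HOXB2 against Doxo. HOXB9 (chr17:48621157-48626473), a posterior gene of the trunk, had 133 and 126 CPM in NT, 144, 132 and 133 in Doxo, 129, 140.3 and 109 in Doxo+Cyta and 91.0, 65.3, 89.7 and 105.5 in Doxo+Cyta+DAC. The highest decitabine sample lay just under the lowest other sample. The log2 fold changes were -0.56 (SE 0.15), -0.64 (SE 0.14) and -0.52 (SE 0.14), with adjusted p values of 0.00864, 0.0013 and 0.00506. Without NT sample 1 the first became 0.072. HOXB2 stood at 62.2, 66.0, 57.8 and 57.6 CPM in Doxo+Cyta+DAC and at 102, 119 and 92.4 in Doxo+Cyta. These samples did not overlap with any other group, yet HOXB2 was called only against Doxo (-0.97, SE 0.15, adjusted p = 9.63e-05) and also against Doxo+Cyta (-0.78, SE 0.15, adjusted p = 0.000526), the difference from NT being -0.41 (SE 0.17, adjusted p = 0.062).

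HOXB3 and HOXB4, neighbours that are active in blood stem cells, were both lower. HOXB3 (chr17:48548870-48574448) had 40.4 and 39.3 CPM in NT, 32.7, 29.5 and 30.4 in Doxo, 45.2, 33.8 and 38.5 in Doxo+Cyta and 18.7, 21.9, 17.1 and 18.5 in Doxo+Cyta+DAC. Its levels in the decitabine samples were about 2-fold below NT, with log2 fold changes of -1.07 (SE 0.14), -0.70 (SE 0.13) and -1.04 (SE 0.12). The adjusted p values were 4.24e-05, 0.000303 and 8.78e-06, the first and last being the smallest of the 24 genes. HOXB4 had 23.0, 21.7, 23.4 and 21.6 CPM in Doxo+Cyta+DAC, below all other samples, and fell by less, with -0.38 (SE 0.11), -0.39 (SE 0.10) and -0.38 (SE 0.10) and adjusted p values of 0.0137, 0.0048 and 0.00548. Leaving out either NT sample ended its call against NT (adjusted p = 0.053 and 0.13).

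HOXB7, a central gene, stood at 12.6 and 10.4 CPM in NT, 8.45, 8.67 and 12.6 in Doxo, 12.6, 15.3 and 11.6 in Doxo+Cyta and 7.04, 6.74, 6.46 and 5.15 in Doxo+Cyta+DAC. The decitabine samples were the 4 lowest. The log2 fold changes were -0.86 (SE 0.20), -0.64 (SE 0.18) and -1.05 (SE 0.18), with adjusted p values of 0.00299, 0.00792 and 0.000185. The first was no longer called without NT sample 1 (adjusted p = 0.055), nor the second without Doxo sample 6 (0.073). Its neighbour HOXB8, which keeps myeloid progenitors dividing when it is overexpressed, went the other way, with 2.39, 2.75, 1.94 and 2.93 CPM in Doxo+Cyta+DAC, 1.05, 0.873 and 1.14 in Doxo and 1.05, 1.87 and 0.978 in Doxo+Cyta. It was higher against Doxo (1.28, SE 0.30, adjusted p = 0.00196) and also against Doxo+Cyta (0.94, SE 0.29, adjusted p = 0.0111), and the second call was lost without Doxo+Cyta sample 19 or 22 (adjusted p = 0.055 and 0.060). In NT, at 2.26 and 1.55 CPM, HOXB8 overlapped the decitabine samples (0.37, SE 0.31).

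HOXB5, also a central gene, had 1.90 and 2.26 CPM in NT, 2.16, 2.27 and 3.16 in Doxo, 3.03, 4.07 and 2.99 in Doxo+Cyta and 1.29, 1.72, 1.16 and 1.11 in Doxo+Cyta+DAC. All 4 decitabine samples were below the other 8. HOXB5 was called lower against Doxo (-0.94, SE 0.25, adjusted p = 0.00498) and also against Doxo+Cyta (-1.35, SE 0.24, adjusted p = 0.000289), and against NT its value was -0.66 (SE 0.28, adjusted p = 0.066). HOXB6, between HOXB5 and HOXB7, had 7.21 to 12.5 CPM over the 12 samples and was not called, the 95% interval of its log2 difference from NT running from -0.38 to 0.47. HOXB13, a gene of the prostate and hindgut, had 1.65 to 3.03 CPM and was not called either, with an interval from -0.70 to 0.44.

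In HOXC, HOXC9, a gene of thoracic identity, stood at 2.42 and 2.80 CPM in NT, 2.58, 2.27 and 1.51 in Doxo, 3.71, 3.67 and 2.57 in Doxo+Cyta and 1.96, 0.619, 0.997 and 1.11 in Doxo+Cyta+DAC. Decitabine sample 30 overlapped Doxo sample 6. The log2 fold changes were -1.14 (SE 0.36), -0.84 (SE 0.34) and -1.49 (SE 0.32), with adjusted p values of 0.0175, 0.0428 and 0.00122. Of 18 alternatives, 10 ended the call against Doxo, while 2 of 18, the omission of either NT sample, ended that against NT. HOXC6 at 3.84 to 6.37 CPM, HOXC8 at 0.275 to 1.31 and HOXC10 at 1.38 to 4.02 over the 12 samples were not called in any comparison. The interval of HOXC6 against NT ran from -0.50 to 0.40.

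The ends of HOXD moved apart. HOXD1 (chr2:176188579-176190907), the anterior end gene, had 8.28 and 7.98 CPM in NT, 6.28, 10.1 and 10.7 in Doxo, 8.35, 7.94 and 9.41 in Doxo+Cyta and 2.63, 1.72, 2.62 and 6.18 in Doxo+Cyta+DAC. Decitabine sample 33 was close to Doxo sample 4, and the other 3 were under 2.64 CPM. The log2 fold changes were -1.33 (SE 0.35), -1.49 (SE 0.32) and -1.41 (SE 0.32), with adjusted p values of 0.00631, 0.00117 and 0.00168. HOXD13 (chr2:176092804-176095938), the posterior end gene that shapes the digits, had 8.23 and 7.45 CPM in NT, 6.42, 5.82 and 6.06 in Doxo, 6.86, 7.41 and 6.11 in Doxo+Cyta and 14.9, 10.3, 12.2 and 13.2 in Doxo+Cyta+DAC. Every decitabine sample was above every other sample. The log2 fold changes were 0.69 (SE 0.17), 1.05 (SE 0.16) and 0.90 (SE 0.15), with adjusted p values of 0.00509, 6.37e-05 and 0.000201. The first lost its call without NT sample 2 (adjusted p = 0.066). HOXD4, at 0.0667 to 0.893 CPM, and HOXD8, at 0.407 to 1.42, were not called.

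The proteins that bind DNA with HOX, together with the inhibitor PBXIP1, were examined as a list of 10 genes, of which 9 were tested. In Doxo+Cyta+DAC, 5 were lower and 0 higher against NT, and 6 were lower and 1 higher against Doxo and against Doxo+Cyta. The shares called were 55.6%, 77.8% and 77.8%, beside 48.7%, 59.5% and 60.3% of all genes. PBXIP1, which encodes a PBX-binding protein known to block PBX-HOX complexes, went from 57.6 ± 0.301 CPM in NT to 18.2 ± 2.2 (log2 -1.66, SE 0.12, adjusted p = 6.23e-07). MEIS3 stood at 0.218 CPM in NT and 0.0874 in Doxo+Cyta+DAC, near the limit of detection, and was called lower against Doxo (-2.73, SE 0.71) and Doxo+Cyta (-2.21, SE 0.76). Its highest decitabine sample was at 0.158 CPM, so MEIS3 entered the tests only through other groups. It could hardly have been called higher, and it is among the 6 lower genes of those comparisons. Of the PBX genes, PBX4 changed by -1.30, -2.02 and -1.98 and PBX3 by -1.07, -1.17 and -0.92 on the log2 scale. MEIS1 and MEIS2 were picked for their role after the values were seen. MEIS1 had 19.9 ± 1.57 CPM (SD, n = 2) in NT, 17.5 ± 3.03 (n = 3) in Doxo, 20.8 ± 4.11 (n = 3) in Doxo+Cyta and 10.7 ± 2.06 (n = 4) in Doxo+Cyta+DAC, with log2 fold changes of -0.90, -0.72 and -0.96. MEIS2 had 69.4 ± 2.65 CPM in NT and 75.1 ± 5.88 in Doxo+Cyta+DAC, and was called higher only against Doxo+Cyta (0.36, SE 0.11). The median log2 difference of the list from NT was -0.90, beside 0.02 over all genes.

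Of 23 noncoding and antisense genes of the clusters, 8 were tested and 4 were lower in each of the 3 comparisons, with none higher. The share called was 50% in each, close to the 48.7% of all genes against NT and below the 59.5% and 60.3% of the other comparisons. HOXA11-AS, antisense to HOXA11, fell from 15.3 ± 0.643 CPM in NT to 5.98 ± 0.925 (log2 -1.34, SE 0.19, adjusted p = 7.48e-05), while HOXA11 itself was not called against NT (-0.40, adjusted p = 0.12). The other 3 were HOTAIRM1 of the HOXA cluster, which changed by -0.82 (SE 0.22), HOXB-AS1 by -0.75 (SE 0.21) and HAGLR, which overlaps HOXD1, by -0.80 (SE 0.24). The counts ignore strand, so fragments were left out where a gene and its antisense partner share exon bases. HOXA11 shares no exon bases with another gene. HOXB3 shares some with HOXB-AS1 and HOXD1 some with HAGLR, and 92.3% and 92.7% of their exon bases are free of other genes.

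Genes that flank the clusters also moved in both directions. Of 19 such genes 14 were tested, and 7 were lower and 3 higher against NT, 10 and 3 against Doxo, and 10 and 3 against Doxo+Cyta. These were 71.4%, 92.9% and 92.9% of the list, beside 48.7%, 59.5% and 60.3% of all genes. CALCOCO1, beside HOXC, went from 95.5 ± 1.49 CPM in NT to 29.9 ± 4.84 (log2 -1.68, SE 0.18), and SNX10, in the region of HOXA, from 5.92 ± 0.808 to 1.93 ± 0.0822 (-1.61, SE 0.23). SNX10 was already lower in Doxo than in NT, at 2.94 CPM (SE of the log2 difference 0.24, adjusted p = 0.0196), and its difference between Doxo+Cyta+DAC and Doxo was -0.61 (SE 0.22). PRAC2, next to HOXB13, changed by -1.09 (SE 0.25) although HOXB13 was not called. KIAA1715, beside HOXD, was lower by -1.09 (SE 0.25), while the 3 higher genes were HNRNPA3 and ATP5G3 of the same region (0.80, SE 0.12, and 0.85) and HNRNPA1 beside HOXC (0.23). EVX1 and EVX2, homeobox genes next to HOXA13 and HOXD13, held 0 counts.

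Of 30 chromatin regulators of HOX genes, 27 were tested, and 5 were higher and 7 lower against NT, 9 and 6 against Doxo, and 9 and 8 against Doxo+Cyta, with a median log2 difference from NT of 0.02. The shares called, 44.4%, 55.6% and 63.0%, were near the 48.7%, 59.5% and 60.3% of all genes. The Polycomb gene CBX7 fell from 5.18 ± 0.753 CPM in NT to 0.982 ± 0.225 (log2 -2.40, SE 0.26), and EZH1, a histone H3K27 methyltransferase, from 54.8 ± 0.788 to 23.0 ± 1.65 (-1.25, SE 0.15). KMT2A, the Trithorax methyltransferase, changed by -0.94 (SE 0.26). WDR5, a subunit of the KMT2A complex picked after its value was seen, was higher by 0.86 (SE 0.21). CBX7 is also among the genes the study named on these samples.

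Of the leukemia genes known as HOXA9 and MEIS1 targets 10 were tested, and 1 was higher and 3 lower against NT, 2 and 1 against Doxo, and 3 and 4 against Doxo+Cyta. The shares called were 40%, 30% and 70%, beside 48.7%, 59.5% and 60.3% of all genes. ERG, a transcription factor of blood stem cells, rose from 7.48 ± 0.553 CPM to 21.9 ± 6.50 (1.55, SE 0.23, adjusted p = 0.000129). CD34, a marker of stem and progenitor cells, was called higher against Doxo (1.14, SE 0.34) and Doxo+Cyta (0.86, SE 0.33), and against NT its value was 0.56.

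The enzymes that write, keep and remove DNA methylation were the last list, with 7 of 8 tested. Against NT, 2 were higher and 2 lower in Doxo+Cyta+DAC, and against Doxo and Doxo+Cyta 3 were higher and 3 lower. The shares called were 57.1%, 85.7% and 85.7%, beside 48.7%, 59.5% and 60.3% of all genes. TET1, which oxidises methylcytosine, went from 6.16 to 1.22 CPM (log2 -2.32, SE 0.27, adjusted p = 2.04e-05). UHRF1, which brings DNMT1 to newly copied DNA, went from 47.0 to 138 CPM (1.56, SE 0.30, adjusted p = 0.000834). DNMT1, the maintenance methyltransferase that decitabine traps, went from 676 to 1035 CPM (0.61, SE 0.18). In Doxo the direction of DNMT1 was the opposite: it stood at 418 CPM and was called lower than in NT (-0.70, SE 0.18, adjusted p = 0.0271). DNMT3A (-0.45) and DNMT3B (-0.58) were also called lower in Doxo, and no other gene of the list was called in that comparison. DNMT3A did not turn with decitabine, with 35.3 CPM in NT, 25.7 in Doxo and 20.4 in Doxo+Cyta+DAC. In Doxo+Cyta against NT, 0 of the 7 were called. TET2, a gene often mutated in AML, was called lower against Doxo (-1.03) and Doxo+Cyta (-0.80), and against NT its value was -0.46.

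Erythroid markers differed between the groups as well. Against Doxo+Cyta, 7 of the 9 erythroid markers were lower in Doxo+Cyta+DAC, among them GATA1 (-1.01) and KLF1 (-0.65), and HBE1 was higher (1.18), where 30.5% of all genes were lower. Against Doxo 5 were lower and 0 higher, where 30.4% and 29.1% of all genes were. Against NT 2 were lower and 1 higher, beside 23.7% and 24.9% of all genes. The embryonic globin gene HBE1 was also called higher than NT in Doxo (2.88) and in Doxo+Cyta (1.81) on the log2 scale, and its value in Doxo+Cyta+DAC against Doxo was 0.10 (SE 0.25). Summed over the 9 erythroid markers the level was 7062 to 8347 CPM without TMM scaling in NT and 6242 to 9333 in Doxo+Cyta+DAC. Of 4 megakaryocyte markers 2 were tested and both were lower in all 3 comparisons, where 18.7% of all genes were. ITGA2B had log2 fold changes of -0.52, -0.47 and -0.59. The sum over the list, also without TMM scaling, was 1661 to 1721 CPM in NT and 983 to 1212 in Doxo+Cyta+DAC. Of 5 monocyte and granulocyte markers 2 were tested, and CSF1R was lower against NT (from 1.85 to 0.619 CPM, log2 -1.52, SE 0.54). Of 4 B cell markers 2 were tested, and CD79A was lower (from 4.53 to 1.37 CPM, log2 -1.71, SE 0.30). The 1 T cell marker that could be tested, CD2, was called lower against Doxo (-0.54, SE 0.21) but not against NT, and the 1 stromal marker was not called. The part of these markers in the HOX values was not tested.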

How the data were processed

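Per the labels and the study's methods, TruSeq libraries were sequenced as paired-end reads, checked with FastQC and aligned to GRCh38 with Bowtie2 2.2.8, an aligner that cannot place a read across a splice. The deposited values are counts of fragments over each gene, made by the authors with featureCounts 1.6.0, without regard to strand and without fragments that map to several places or overlap several genes. The exon length of each gene, in bases, is a further deposited column. Genes that share exons or have antisense partners lose fragments in this way.

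A count was missing for 4 of the 26485 rows, which left 26481 genes. Groups came from the sample labels, and 2 untreated samples were analysed here. The labels call the cultures biological replicates. The HOX genes were matched by symbol, and all 39 lay on the GENCODE 44 gene of the same name and strand. The members and the gene lists were chosen with earlier results of these data known. Every HOX gene is counted, and those called in a comparison are given in every sample. A few genes are not reported here by name, but counts, sums and medians over the lists include them. Of each other list, at most 4 genes with an adjusted p under 0.05 and a fold over 2 in a comparison with Doxo+Cyta+DAC are named, in order of size against NT, and any further gene was chosen after its values were seen. Levels of different genes were compared per kilobase of the deposited length.

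Counts were fitted in edgeR 4.0.16 (R 4.3.3) with filterByExpr, which left 14164 genes, TMM scaling and a quasi-likelihood fit of all 12 samples. All tests were two-sided, with Benjamini-Hochberg adjustment within each comparison across every gene tested. SE are the log2 fold change over the root of F. A prior count of 2 was used for log2 CPM. No libraries of a group were duplicates. The steps were tested on simulated counts. Alternatives were DESeq2 1.42.0, other scalings and filters, fits of only the groups compared, libraries drawn down to the smallest total, and leaving out each sample. Intervals and limits of counts cover counting error only.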

Additional observations from a re-analysis of the deposited data

How the results depend on the processing

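Of 42 calls of a HOX gene in a comparison with Doxo+Cyta+DAC, 0 changed direction under the 19 alternatives and 29 held in each alternative that gave a value. A minimum of 10 counts in every sample gave values for 28 of the 42. The count of 12 calls against NT became 5 without NT sample 1 and ranged from 5 to 14 when single samples were left out and from 9 to 14 otherwise. The 14 calls against Doxo ranged from 12 to 14 and from 10 to 15, and the 16 against Doxo+Cyta from 14 to 16 and from 11 to 16. The count of 0 in Doxo against NT was 1 with DESeq2, 1 without Doxo sample 4 and 3 without Doxo+Cyta sample 20, a range of 0 to 3. The counts of 0 in Doxo+Cyta against NT and against Doxo were 0 in each alternative (range 0 to 0). The cause of these shifts was not tested beyond the smaller number of samples. The number of detected members was 24, or 23 when 10 counts were required in every library of 1 group and 22 at 1 CPM in 2 samples, and 24 in each run with a sample left out. Per kilobase of unshared exon, chosen after seeing the data, the NT level of 5 of 9 genes that share exons moved by more than 1 SD. Upper-quartile scaling moved the median of all genes by at most -0.09 on the log2 scale. Counts under 10, as for HOXA3, HOXA4 and HOXA13 with decitabine, limit precision. No paired analysis was possible because the groups share no replicate number.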
